A study of Mus musculus with 6 samples.

Results

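Steroid conjugation and detoxification enzymes are represented here by 6 genes, Sult1e1, Ephx1, Gstm1, Gstm2, Aldh1a1 and Por, chosen by name as enzymes common in Leydig cells and with the difference between the precipitates of MVH and IgG in view. Each was found through its current symbol with 1 probe, so that 6 of the 16390 different gene symbols on the array were followed. MVH, also called DDX4, is a germ cell RNA helicase, and the study asked which mRNAs are brought down with it. The groups were RNA precipitated with an antibody against MVH, RNA precipitated with normal rabbit IgG, and total RNA taken with no antibody, which the labels call WCE. Each group had 2 arrays numbered 1 and 2, all from testis of C57/BL6 mice, for which the labels give no age. Per the labels' protocols, a preparation used 2 testes, whose cells were dispersed and lysed with detergent, so the RNA may come from any cell type of the testis. Fewer cells of a type and less RNA per cell cannot be told apart in such samples, and because the RNA was amplified, the amount recovered was not measured either. Whether the numbered arrays came from separate mice is not stated, so p-values speak only of the spread from array to array and not necessarily from mouse to mouse.

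Leydig cells lie between the seminiferous tubules and make testosterone. Their smooth endoplasmic reticulum holds cytochrome P450 enzymes, which receive electrons from NADPH through P450 oxidoreductase, and steroid hormones are inactivated by conjugation, for example to sulfate. Glutathione S-transferases, epoxide hydrolases and aldehyde dehydrogenases clear reactive electrophiles, epoxides and aldehydes.

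The 6 genes did not behave alike. Sult1e1, Ephx1 and Gstm2 had the highest intensities on both IgG arrays, intermediate ones on both total RNA arrays and the lowest on both MVH arrays. Gaps were small for Gstm1, which had the same order, and between MVH and total RNA for Sult1e1. Aldh1a1 and Por did not separate the groups. Intensities are those the authors deposited, scaled here so that every array has a median of 30. The array of IgG precipitate 2 was dimmer as deposited, with a median of 20.8 against 30 on the other 5 arrays, and this scaling decides part of the order, as given below.

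Sult1e1 encodes the estrogen sulfotransferase, which inactivates estrogens by adding a sulfate group. Its scaled intensity was 28.1 and 33.8 in the MVH precipitates, 168 and 183 in the IgG precipitates, and 36.1 and 59.6 in total RNA. The 3 groups did not overlap, and the IgG arrays stood far from the other 4. The percentile of its probe among the probes listed on an array, which does not depend on the scaling, was 48.7 and 52.4 in the MVH precipitates, 76.4 and 77.6 in the IgG precipitates, and 53.8 and 62.7 in total RNA.

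The start of Sult1e1 is shown because this gene had the largest difference of the 6 between the IgG precipitate and total RNA. The line gives the 250 bases before its start in RefSeq (GRCm38.p6, chr5:87591612-87591861, minus strand), with a nuclear receptor core motif in capitals.
Sult1e1: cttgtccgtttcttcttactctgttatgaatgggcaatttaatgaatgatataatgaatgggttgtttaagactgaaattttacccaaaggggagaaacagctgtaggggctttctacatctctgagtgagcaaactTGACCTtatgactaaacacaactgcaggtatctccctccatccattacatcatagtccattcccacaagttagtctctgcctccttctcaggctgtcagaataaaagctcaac
The capitals are the reverse complement of AGGTCA, beginning 113 bases before the start. This motif lies on either strand in 16.3% of the 32841 RefSeq windows of 300 bases, which reach 50 bases past the start. The longer form CAAGGTCA, which the steroidogenic factor NR5A1 is known to bind, contains AGGTCA and was present in 1.56% of windows. No window of the 6 genes held it, and none held TGACNNNGC, the core of the antioxidant response element (12.4% of all windows). Of the 8 windows of the 6 genes, AGGTCA was also present in the second of the 2 Gstm1 windows. These are matches of letters only.

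Ephx1 encodes microsomal epoxide hydrolase, which opens epoxides to diols. It measured 84.3 and 59.8 in the MVH precipitates, 432 and 358 in the IgG precipitates, and 165 and 292 in total RNA. Here too the 3 groups did not overlap, but the total RNA arrays differed 1.77-fold from each other, a larger difference than at 92.9% of probes. Its percentiles were 68.5 and 62.9 in the MVH precipitates, 85.4 and 84.0 in the IgG precipitates, and 77.5 and 82.0 in total RNA.

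Gstm2 encodes a glutathione S-transferase of the mu class. Its intensity was 726 and 748 in the MVH precipitates, 1840 and 2170 in the IgG precipitates, and 1570 and 1520 in total RNA. The pairs lay close together, with a 1.03-fold difference between the MVH arrays and between the total RNA arrays and 1.17-fold between the IgG arrays. The MVH arrays stood well below the other 4, while total RNA was only slightly below IgG.

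Gstm1 encodes another mu class enzyme and lies next to Gstm2 on chromosome 3, with 0 protein-coding genes between them in the RefSeq annotation. It measured 126 and 107 in the MVH precipitates, 384 and 152 in the IgG precipitates, and 148 and 131 in total RNA. The groups did not overlap, yet IgG precipitate 2 exceeded total RNA 1 by little, and the IgG arrays differed 2.53-fold. By percentile within the array IgG precipitate 2 (75.6) lay below total RNA 1 (76.1). The mu class genes resemble each other in sequence and the probe sequences were not used here, so signal shared between them cannot be told apart.

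Aldh1a1 encodes an aldehyde dehydrogenase that oxidises retinaldehyde to retinoic acid. Its intensity was 61.4 and 115 in the MVH precipitates, 90.7 and 27.4 in the IgG precipitates, and 52.9 and 64.7 in total RNA. The groups overlapped, and the IgG arrays differed 3.31-fold from each other.

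Por encodes P450 oxidoreductase, the electron donor of microsomal P450 enzymes. It measured 48.3 and 55.6 in the MVH precipitates, 108 and 44.3 in the IgG precipitates, and 45.3 and 48.6 in total RNA. Only IgG precipitate 1 stood apart, and it was 2.45-fold above IgG precipitate 2. For Gstm1, Aldh1a1 and Por alike, IgG precipitate 1 was the higher array of its pair, and the difference within the pair was larger than at 95.9%, 98.5% and 95.3% of probes.

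**Figure D1:**
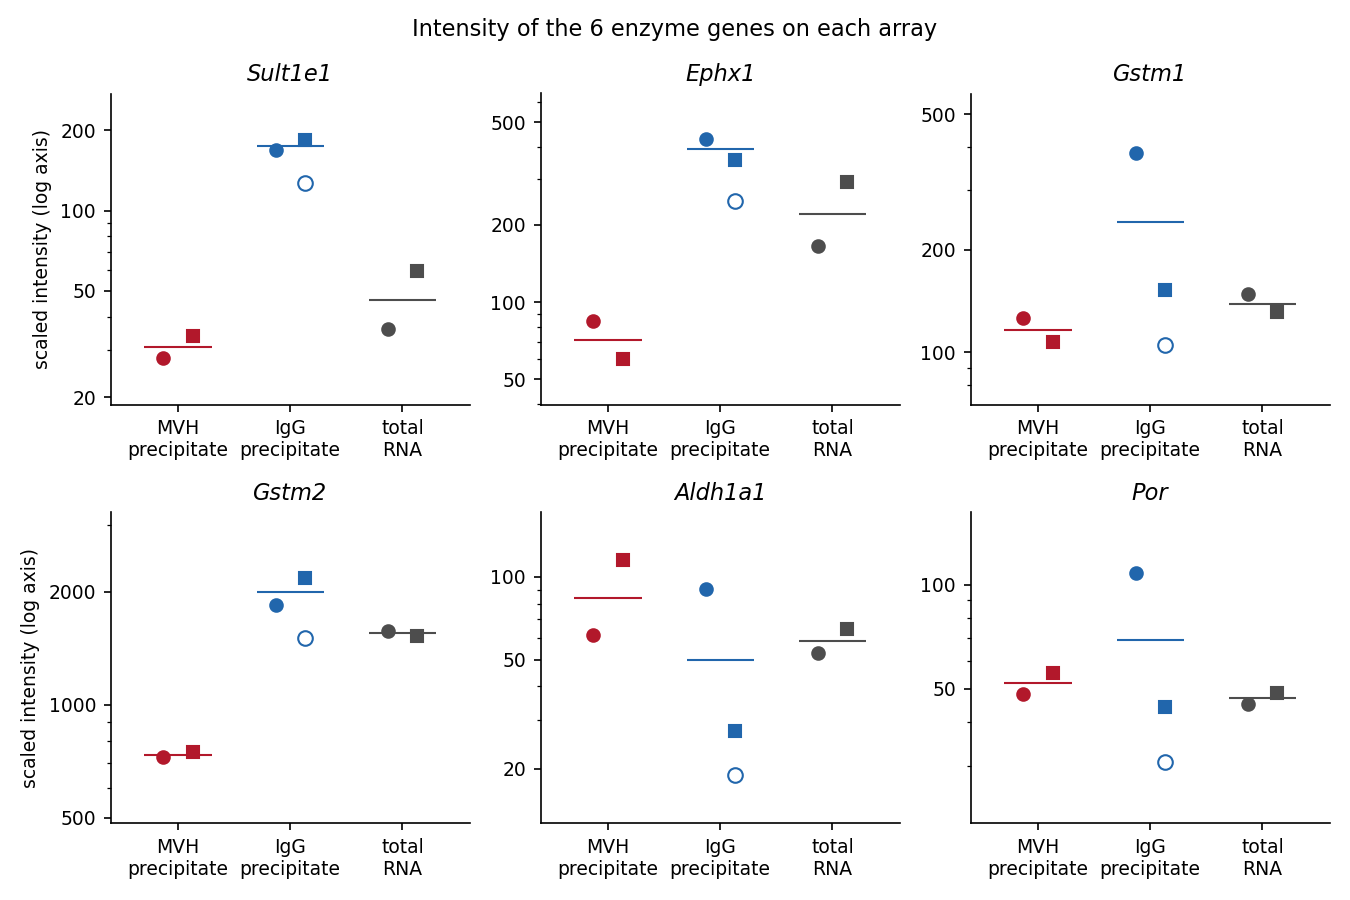
Scaled intensity (log axis, array median 30) of each gene in the MVH precipitate, the IgG precipitate and total RNA. Filled circles are arrays numbered 1, filled squares arrays numbered 2, lines the geometric means of 2 arrays, and the open circle IgG precipitate 2 as deposited. Sult1e1 lies at 168 and 183 with IgG, above the other 4 arrays. The IgG arrays of Aldh1a1 lie far apart at 90.7 and 27.4, and MVH precipitate 2 is the highest at 115.

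The order of IgG over total RNA over MVH on every array was seen for 4 of the 6 genes, against 4.75% of the 21241 probes listed on all 6 arrays. The genes were chosen with the difference between the precipitates known, which fixed part of this order. With the intensities as deposited, where IgG precipitate 2 is not scaled up, the order remained for 1 gene, Sult1e1, against 1.8% of probes. With centring on the 75th percentile, with quantile normalization or by percentile it was seen for Sult1e1, Ephx1 and Gstm2, against 4.68%, 5.11% and 5.12% of probes.

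Between the MVH and the IgG precipitate, the contrast known when the genes were chosen, differences are given with no test. Sult1e1 was 5.68-fold lower with MVH (log2 difference -2.51 ± 0.32, SE, n = 2 per group) and Ephx1 5.54-fold lower (-2.47 ± 0.35). Gstm2 was 2.71-fold lower (-1.44 ± 0.26) and Gstm1 2.08-fold lower (-1.06 ± 0.42). Por differed by -0.42 ± 0.40 and Aldh1a1, the 1 gene with a positive value, by 0.76 ± 0.54. The MVH arrays lay below both IgG arrays at 4 of 6 genes, as at 23.8% of the 21574 probes compared. With no centring they did so at 3 of 6, and the matching share of all probes was not counted. Values of Aldh1a1 and Por rested on 1 array: without IgG precipitate 2 Aldh1a1 differed by -0.11, and without IgG precipitate 1 Por differed by 0.23. Gstm1 differed by -1.73 without IgG precipitate 2 and by -0.39 without IgG precipitate 1.

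The MVH precipitate against total RNA asks which RNAs were enriched or depleted relative to their abundance. Its MVH arrays are those of the first contrast, so that its values are not independent of the choice of genes. Ephx1 was 3.10-fold lower with MVH (log2 difference -1.63 ± 0.35, SE, n = 2 per group, limma adjusted p = 0.229), a difference larger than that of 99.3% of probes but not past the threshold of 0.05. Gstm2 was 2.10-fold lower (-1.07 ± 0.26, limma adjusted p = 0.263). Sult1e1 differed by -0.59 ± 0.32 (adjusted p = 0.657), Gstm1 by -0.26 ± 0.42 (0.956), Aldh1a1 by 0.52 ± 0.54 (0.903) and Por by 0.14 ± 0.40 (0.986). By limma 0 of the 6 genes passed, where 0.0138% of the 21793 probes tested did. Ephx1 and Gstm2 were the 2 at an unadjusted p under 0.05, reached by 8.93% of probes. The MVH arrays lay below both total RNA arrays at 4 of the 6 genes, and at 21.6% of probes. With quantile normalization, 75th percentile centring or percentiles within the array they did so at 3 genes, and the matching shares of all probes were not counted. Ephx1 passed in 2 of 16 alternatives, without the dimmest 25% of probes (adjusted p = 0.0441) and with a variance trend (0.0301), and its adjusted p ranged from 0.0301 to 1 over all 16.

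The IgG precipitate against total RNA shows what the antibody control brought down. It shares the IgG arrays with the first contrast and the total RNA arrays with the second. Sult1e1 was 3.78-fold higher with IgG (log2 difference 1.92 ± 0.32, SE, n = 2 per group, limma adjusted p = 0.0542), which narrowly missed the threshold. It passed in 8 of 16 alternatives, and its adjusted p ranged from 0.00445 with a variance trend to 0.349 without total RNA 1. Ephx1 differed by 0.84 ± 0.35 (adjusted p = 0.251), Gstm1 by 0.80 ± 0.42 (0.355), Por by 0.56 ± 0.40 (0.504), Gstm2 by 0.37 ± 0.26 (0.500) and Aldh1a1 by -0.23 ± 0.54 (0.852). By limma 0 of the 6 genes passed, where 0.00934% of the 21413 probes did. Sult1e1 and Ephx1 were at an unadjusted p under 0.05, as were 18.2% of probes. Both IgG arrays lay above both total RNA arrays at 4 of 6 genes and at 20% of probes. This count was 1 of 6 with no centring and 3 of 6 with quantile normalization, 75th percentile centring or percentiles within the array. The matching shares of all probes under these scalings were not counted. Gstm1 differed by 1.47 without IgG precipitate 2 and by 0.13 without IgG precipitate 1, Por by 1.21 and -0.08, and Aldh1a1 by 0.63 and -1.09. Ephx1 differed by 0.43 without total RNA 1 and by 1.25 without total RNA 2.

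**Figure D2:**
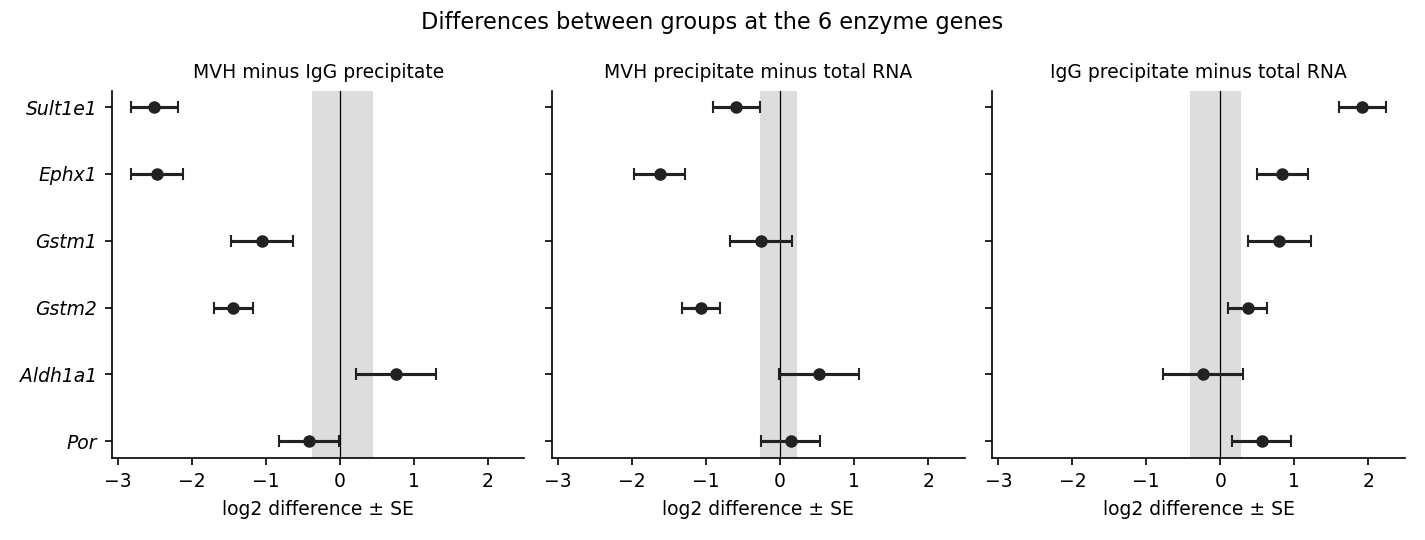
Log2 difference ± SE (x axis, n = 2 per group) of the 6 genes in the MVH minus the IgG precipitate, the MVH precipitate minus total RNA and the IgG precipitate minus total RNA. The grey band spans the lower to the upper quartile of all probes. Sult1e1 lies nearer to total RNA with MVH (-0.59) than with IgG (1.92), whereas Ephx1 and Gstm2 lie farther from it with MVH (-1.63 and -1.07) than with IgG (0.84 and 0.37).

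Sult1e1, Ephx1 and Gstm2 thus differed in where total RNA stood. For Sult1e1 it lay close to MVH (nearest arrays 36.1 and 33.8), and for Gstm2 close to IgG (1570 and 1840). As deposited, IgG precipitate 2 lay below total RNA 2 at Ephx1 (248.2 against 292.4) and at Gstm2 (1501.3 against 1520.9). That these positions differ between the genes was not tested. Over the 6 genes the median log2 difference was -1.25 for MVH minus IgG, -0.43 for MVH minus total RNA and 0.68 for IgG minus total RNA, beside 0.07, -0.02 and -0.10 over all probes. As deposited, with no centring, the medians of the 6 became -0.98, -0.43 and 0.42 and those of all probes 0.34, -0.02 and -0.37.

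The genes whose profile over the 6 arrays was closest to each enzyme were taken from 8114 probes of named genes at or above the array median, by the root mean square difference of log2 values after each gene's own mean was removed. For Sult1e1 these were Tbl2 (0.17), Akr1cl (0.18), a gene of the aldo-keto reductase family, and Ung (0.21), the uracil-DNA glycosylase. Akr1cl measured 25.4 and 39.2 in the MVH precipitates, 184 and 146 in the IgG precipitates, and 32.8 and 56.8 in total RNA. For Ephx1 they were the vesicle fusion gene Vamp8 (0.22), the laminin gene Lamb2 (0.27) and Fmc1 (0.28), and for Gstm2 Emc10 (0.08), the calpastatin gene Cast (0.08) and Fam241b (0.10). Gstm1 was closest to Prxl2b (0.06), Mfap3 (0.08) and Tradd (0.10), Aldh1a1 to Wdr53 (0.17), the proteasome gene Psmd12 (0.19) and Cnbd2 (0.21), and Por to Fancc (0.11), Slc25a17 (0.12) and Med6 (0.12). Among the 6 enzymes themselves, the closest profiles were those of Gstm1 and Por (0.30), which share the high IgG precipitate 1, and the farthest were those of Aldh1a1 with Sult1e1 and with Ephx1 (1.47 each).

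Other genes of the same pathways came from lists drawn up by enzyme class, without the 6. Of 25 other glutathione S-transferase genes 20 had a probe. With MVH, 18 of the 20 were below total RNA and 2 above, with a median of -0.32, and 11 had MVH arrays below both total RNA arrays, as 21.6% of all probes did. By limma 0 of the 20 passed against total RNA with either precipitate, and 2 with MVH and 4 with IgG were at an unadjusted p under 0.05, as in the other lists to be read beside 8.93% and 18.2% of all probes. Between the precipitates 1 was lower with MVH, Gstt1 (log2 difference -1.84 ± 0.33, limma adjusted p = 0.0212), and 1 higher, Gstt4 (1.68 ± 0.26, limma adjusted p = 0.0172), where 4.15% and 3.82% of all probes were called. Calls between the precipitates are no independent support, here and in the lists and markers that follow, since all lists were drawn up with earlier results known. They were also not stable. Of the 824 higher and 895 lower probes 0 and 0 were called with only the 4 arrays compared, and 0 and 0 without MVH 2, without total RNA 1 or without total RNA 2. Without MVH 1 there were 94 and 16, and with no centring 702 and 121. Gstt1, of the theta class, measured 21.8 and 15.6 in the MVH precipitates, 78.0 and 55.5 in the IgG precipitates, and 24.3 and 34.4 in total RNA. Gstt4 ran the other way, at 1700 and 1750 in the MVH precipitates, 513 and 564 in the IgG precipitates, and 983 and 950 in total RNA. Gsta3, of the alpha class, measured 72.5 and 128 in the MVH precipitates, 342 and 208 in the IgG precipitates, and 103 and 168 in total RNA (IgG minus total RNA 1.02 ± 0.40, limma adjusted p = 0.227).

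Of 16 other sulfation genes, sulfotransferases with the enzymes that make their sulfate donor and the steroid sulfatase gene, 10 had a probe and 9 were tested. By limma 0 were called in any contrast, with 0 for MVH and 1 for IgG against total RNA at an unadjusted p under 0.05. Against total RNA, 8 of the 9 were lower with IgG and 1 higher (median -0.43), where Sult1e1 had 1.92. With no centring all 9 were lower, beside a median of -0.37 over all probes. Sult4a1 measured 89.4 and 83.8 in the MVH precipitates, 59.9 and 49.0 in the IgG precipitates, and 77.5 and 90.9 in total RNA, and Sult5a1 50.1 and 39.0 in the MVH precipitates, 21.5 and 26.0 in the IgG precipitates, and 29.8 and 41.2 in total RNA. Papss2, which makes the sulfate donor, was dim on all arrays, at 2.40 to 6.40. Sult1a1, Sult1c1, Sult1c2, Sult1d1 and Sult2b1 were also dim, at 2.45 to 18.5.

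Of 20 other aldehyde dehydrogenase genes 19 had a probe, with 16 above and 3 below total RNA with MVH (median 0.25), and 8 above and 11 below with IgG (median -0.18). By limma 0 passed against total RNA, with 2 for MVH and 6 for IgG at an unadjusted p under 0.05. Aldh1a7, a close relative of Aldh1a1, measured 81.2 and 95.3 in the MVH precipitates, 157 and 158 in the IgG precipitates, and 76.0 and 75.8 in total RNA (IgG minus total RNA 1.05 ± 0.26, limma adjusted p = 0.0950). Its IgG arrays were thus alike and the highest, unlike those of Aldh1a1, though a probe may pick up both. Aldh2, the mitochondrial enzyme of acetaldehyde oxidation, measured 519 and 642 in the MVH precipitates, 1670 and 981 in the IgG precipitates, and 398 and 456 in total RNA (1.59 ± 0.33, limma adjusted p = 0.0683). Aldh3b3 was higher with MVH than with IgG (1.34 ± 0.29, limma adjusted p = 0.0304), the 1 of 19 genes called between the precipitates, where 3.82% of all probes were called higher.

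Of 9 other epoxide hydrolase, quinone reductase and carbonyl reductase genes, all with a probe, 0 passed by limma in any contrast and 0 were at an unadjusted p under 0.05 against total RNA. The medians were -0.03 for MVH and -0.08 for IgG against total RNA. Cbr2 and Nqo1 had IgG arrays that did not overlap with total RNA (0.73 ± 0.38 and -0.38 ± 0.27), at intensities of 7.60 to 20.5. Of 20 other electron transfer genes listed with Por, 19 had a probe, with medians of -0.22 for MVH and -0.13 for IgG against total RNA. Among them were P450 enzymes, cytochrome b5 genes, cytochrome b5 reductase genes (Cyb5r) and heme oxygenases. By limma 0 were called in either, with 3 and 5 at an unadjusted p under 0.05. Between the precipitates 2 were higher with MVH, Hmox2 (1.93) and Cyb5r4 (1.3), and 2 lower, Cyp17a1 (-2.59) and Cyb5r1 (-1.84), of 19 tested, where 3.82% and 4.15% of all probes were called. Cyp17a1, the P450 of androgen synthesis that uses Por, measured 140 and 177 in the MVH precipitates, 1140 and 788 in the IgG precipitates, and 320 and 561 in total RNA, while Por itself separated no groups. Hmox2, heme oxygenase 2, measured 10200 and 10900 in the MVH precipitates, 3150 and 2450 in the IgG precipitates, and 5500 and 8200 in total RNA. Cyb5r1 measured 162 and 236 in the MVH precipitates, 636 and 765 in the IgG precipitates, and 231 and 267 in total RNA.

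Glucuronosyltransferases, with 11 of 19 genes on the array, had 0 called by limma in any contrast (0 and 1 at an unadjusted p under 0.05 for MVH and IgG against total RNA), medians of -0.03 for MVH and -0.09 for IgG against total RNA, and dim named members, Ugt1a6a, Ugt8a and Ugt2b38, at 7 to 29.5. Of 17 glutathione synthesis and peroxidase genes 16 had a probe, with medians of 0.05 for MVH and -0.11 for IgG and 0 called by limma against total RNA (1 each at an unadjusted p under 0.05). Between the precipitates 1 of 16 was called, where 3.82% of all probes were called higher, the cystine transporter gene Slc7a11, higher with MVH (1.77 ± 0.35, limma adjusted p = 0.0264). Gpx6 measured 743 and 879 in the MVH precipitates, 366 and 568 in the IgG precipitates, and 613 and 832 in total RNA, and Ggt5 lay between 9.60 and 14.2 on every array. With no centring, the median of the glutathione S-transferases for IgG minus total RNA turned to -0.21 from 0.05, and with quantile normalization that of the sulfation genes for MVH minus total RNA turned to 0.01 from -0.02. With 75th percentile centring the median of the glutathione S-transferases was 0.00. The medians of the other 5 lists against total RNA had the same sign under these 3 scalings.

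**Figure D3:**
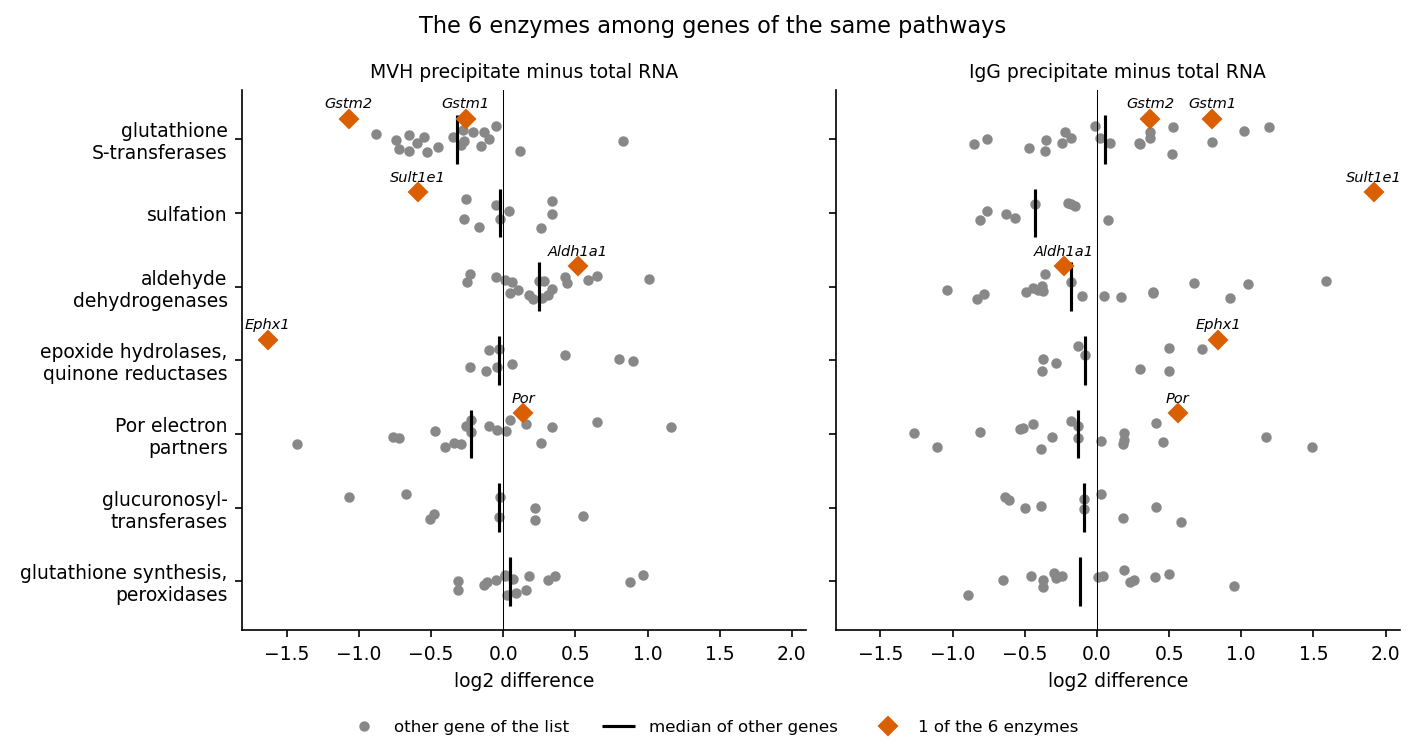
Log2 difference (x axis) of the MVH precipitate (left) and the IgG precipitate (right) against total RNA for other genes of 7 pathway lists (grey points, spread vertically for display), their medians (black lines) and the 6 enzymes (orange diamonds). Sult1e1 lies at 1.92 with IgG, to the right of every other sulfation gene, and Ephx1 at -1.63 with MVH, to the left of every other gene of its list.

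Most marker genes of Leydig cells were also highest in the IgG precipitate, and the sums with MVH and in total RNA, mostly from Fdx1, overlapped. Of 12 such markers 9 had a probe, and Insl3, Lhcgr and Fdxr were not analysed here. The median was -1.50 for MVH minus IgG, -0.42 for MVH minus total RNA and 1.05 for IgG minus total RNA, with 8 of 9 lower, 5 of 9 lower and 8 of 9 higher in these contrasts. By limma 5 were called lower with MVH than with IgG (Cyp11a1, Cyp17a1, Hsd3b1, Hsd3b6 and Nr5a1), beside 4.15% of all probes. Calls of this contrast were as unstable as given above and, with the markers chosen knowing earlier results, are no independent support. Against total RNA 0 were called, with 3 for MVH and 6 for IgG at an unadjusted p under 0.05. The 9 markers summed to 2150 and 2600 in the MVH precipitates, 6170 and 4430 in the IgG precipitates, and 2060 and 2900 in total RNA. Most of this came from Fdx1, at 1550 and 2040, 2990 and 2380, and 1320 and 1690 in the same order. The MVH arrays lay below both total RNA arrays at 5 of the 9 and above both at 0, where 21.6% of all probes lay below. Scarb1 was the 1 marker running the other way, at 0.36 for MVH minus IgG and -0.3 for IgG minus total RNA. Star was dim on all arrays, at 4.90 to 12.4, and Hsd17b3 at 3.10 to 6.60. The 10 Sertoli cell markers summed to 4270 on both MVH arrays, 7280 and 6590 on the IgG arrays, and 5520 and 5930 in total RNA. Most of that sum was Clu, at 3280 and 3370, 5910 and 5260, and 4390 and 4710 in the same order. By limma 0 of the 10 were called (2, 0 and 1 at an unadjusted p under 0.05). Their medians were 0.04, -0.15 and 0.08 in the 3 contrasts (-0.18 for the last with no centring). With MVH, 6 of the 10 were higher than with IgG and 4 lower. The 6 peritubular markers summed to 9950 and 12200 in the MVH precipitates, 8890 and 5850 in the IgG precipitates, and 9720 and 12900 in total RNA, with medians of -0.78, -0.08 and 0.54. That sum was mostly Actg2, at 9400 and 11800 in the MVH precipitates, 5730 and 4380 in the IgG precipitates, and 9310 and 12400 in total RNA. The smooth muscle genes Acta2 and Myh11 ran the other way, with log2 differences of -2.42 (limma adjusted p = 0.0199) and -1.51 (0.0304) for MVH minus IgG and 2.31 (0.059) and 2.25 (0.0542) for IgG minus total RNA. They were the 2 of 6 peritubular markers called between the precipitates, where 4.15% of all probes were called lower. For MVH minus IgG and IgG minus total RNA, Tagln had -1.32 and 1.26, Cnn1 -0.24 and -0.18, and Des 0.11 and -0.49. Tagln, Cnn1 and Des measured 3.03 to 28.4. Endothelial markers (4 listed on all arrays, at summed intensities of 28.7 to 49.5) and macrophage and blood markers (6, without Lyz2, Hba-a1 and Hbb-b1, at 93.5 to 130) were dim throughout. Their medians were 0.68 and 0.45 for MVH minus IgG, -0.13 and 0.16 for MVH minus total RNA, and -0.67 and -0.21 for IgG minus total RNA, and 0 were called by limma in any contrast (at an unadjusted p under 0.05, 1 and 2, 0 and 1, and 1 and 1). The 9 germ cell markers summed to 168000 and 224000 in the MVH precipitates, 161000 and 225000 in the IgG precipitates, and 184000 and 210000 in total RNA. These sums were mostly Prm1, Tnp1 and Ldhc. Ddx4, the mRNA of the precipitated protein, was present at 860 to 1560 on all arrays. The 2 of 9 germ cell markers called between the precipitates, where 3.82% of all probes were called higher, were both higher with MVH. They were Sycp3 (1.79, limma adjusted p = 0.0349) and Pgk2 (2.13, 0.0177). Of the 9, 6 were higher and 3 lower with MVH than with IgG. The medians of the 9 were 0.05, 0.23 and 0.05 in the 3 contrasts (-0.21 for the last with no centring). The part of Leydig cell or other cell types' RNA in the values of the 6 enzymes was not tested.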

How the data were processed

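Per the labels' protocols, each of the 6 arrays was hybridised with aminoallyl aRNA from 1 sample, labelled with Cy5. The values are linear intensity per probe as the authors deposited them. For the scanner, the background correction, the scaling and the blank cells, nothing is stated in the sources used here. Each array listed 22090 to 22965 of 23473 probes, at 1.3 to 83665. The number of arrays limits the precision. Probes were named from the platform annotation (16631 with 1 symbol, 6842 with none), updated through RefSeq synonyms of GRCm38.p6, which also gave the promoter sequence.

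Intensities were centred on each array's median and converted to log2. limma 3.58.1 in R 4.3.3 (lmFit, eBayes) was fitted to all 6 arrays, with 3 residual degrees of freedom per probe plus 5.77 from the prior. A contrast was tested where its 4 arrays had a value, with Benjamini-Hochberg adjustment over all such probes and a threshold of 0.05. The fit was first run on simulated data with known changes. Spreads were shuffled over probes there, so that run does not show how the fit does where spread depends on intensity. Plots were drawn with matplotlib 3.10.9. The 2 arrays of a group correlated at 0.978 to 0.988 over 21241 probes.

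The 6 genes and all lists were chosen with earlier results of these data known. From each pathway list the text names up to 3 genes with the largest difference between IgG and total RNA among those whose groups did not overlap, plus the 3 nearest profiles per enzyme. Cyb5r4 and the single cell type markers were named after their values were seen. A gene with several probes was represented by the brightest. Alternatives were no centring, quantile normalization, 75th percentile centring, a fit without the dimmest 25% of probes, a small offset (2.3) before log2, 1 probe per gene, a fit to probes with 6 values, a variance trend with robust prior, only the 4 arrays compared, a replicate block and leaving out each array. Ranking within arrays, and other scalings of the lists, were added after seeing the data.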

Additional observations from a re-analysis of the deposited data

How the results depend on the processing

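With no centring, the order of IgG over total RNA over MVH held for 1 gene in place of 4, because IgG precipitate 2 was not scaled up. When 1 array was left out it held for the same 4 in each case. This says nothing of stability, since genes in order on all 6 arrays stay in order when any array is removed. The share of all probes in order was 6.45% to 8.76% in these cases, against 4.75% with all 6 arrays. In the IgG precipitate against total RNA, 1 gene in place of 0 was called, Sult1e1, with quantile normalization, 75th percentile centring, an offset, 1 probe per gene, probes with 6 values, a variance trend, a replicate block and without the dimmest 25% of probes. In the MVH precipitate against total RNA 1 gene in place of 0 was called, Ephx1, with a variance trend and without the dimmest 25%. Leaving out any 1 array left both counts at 0.

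Counts over all probes moved far more. For IgG against total RNA the reported counts were 2 higher and 0 lower. They were 5 and 0 with no centring, 112 and 29 with quantile normalization, 150 and 61 with 75th percentile centring, 773 and 410 without the dimmest 25%, 636 and 317 with an offset, 80 and 19 with 1 probe per gene, 344 and 125 with probes with 6 values, 798 and 455 with a variance trend, 1 and 0 with only the 4 arrays compared, and 0 to 46 and 0 to 12 when 1 array was left out. For MVH against total RNA the reported counts were 1 and 2. They were 14 and 5 with no centring, 5 higher with 75th percentile centring, 100 and 23 without the dimmest 25%, 71 and 21 with an offset, 0 and 0 with 1 probe per gene, 23 and 7 with probes with 6 values, 132 and 48 with a variance trend, 2 and 4 with only the 4 arrays compared, and 0 to 9 and 0 to 4 when 1 array was left out. For MVH against IgG the 824 higher and 895 lower probes became 0 and 0 with only the 4 arrays compared, 702 and 121 with no centring, 0 to 593 and 0 to 819 when 1 array was left out, and 748 to 1507 and 762 to 1636 under the other alternatives. The cause was not tested.

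Signs turned at 2 genes. Aldh1a1 became 0.63 for IgG minus total RNA and -0.11 for MVH minus IgG without IgG replicate 2 (ranges -1.09 to 0.63 and -0.11 to 1.62 over the arrays left out), and Por became -0.08 and 0.23 without IgG replicate 1 (-0.08 to 1.21 and -1.06 to 0.23). The direction of the other 4 genes was the same under all alternatives run. The arrays share a number between groups but the labels do not say that it pairs them, and deviations of same-numbered arrays correlated at 0.10 to 0.16. With the replicate block, IgG against total RNA had 123 higher and 27 lower probes, MVH against total RNA had 3 and 1, and Sult1e1 passed with an adjusted p of 0.0466. Signal over background limits dim genes, since the rule behind blank cells is unknown.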
